A study of Mus musculus with 6 samples.

Results

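The genes described here are the collagens and a set of genes known from meningeal fibroblasts, read out in bulk RNA sequencing of mouse hippocampus. They were chosen by symbol. Every gene named as a collagen chain (Col, a type number, a, a chain number) was taken, which gave 44 collagens, and 11 fibroblast genes were added by name: Dcn, Lum, Igf2, Slc6a13, Slc13a4, Aldh1a2, Islr, Fmod, Ogn, Igfbp2 and Pcolce. That made 55 of the 55414 genes in the table. The collagens were split into 11 fibrillar, 8 basement membrane and 25 other collagens. The study set 3 libraries of mice treated with CerM against 3 of mice treated with vehicle, and both groups were hippocampal tissue. CerM is not spelled out in the labels, which also give no dose, duration, strain, genotype, sex or age. The title of the series names ceramides, gut bacteria and a depression model made with corticosterone. Samples are numbered 1 to 3 within each treatment as biological replicates. No label ties each one to a different mouse, and the p-values below therefore reflect only how far these samples spread, which may be technical.

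Collagens are secreted chains that wind into helices and build fibrils, sheets or beaded filaments outside cells. In the brain, fibrillar collagens lie mainly in the meninges and around larger vessels, where fibroblasts make them, while type IV collagen forms the sheet of the basement membrane around vessels and under the pia. Meningeal fibroblasts are also known for Dcn, Igf2, Slc6a13, Slc13a4 and the retinoic acid enzyme Aldh1a2. The choroid plexus, a secretory epithelium over a fibroblast core, lies in the ventricle beside the hippocampus, is marked by Ttr and also makes Igf2. In bulk tissue, fewer cells of a type and less RNA per cell cannot be told apart.

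Promoter windows are shown for 5 members picked by their values in these data. Col11a2 and Col6a3 were the members with the smallest p-values between treatments, and Col8a1, Col8a2 and Slc13a4 were among those that varied most between libraries. RefSeq (GRCm38.p6) gave windows for 44 of the 55 members. Each runs from 250 to 6 bases before the annotated start, 5′ to 3′ on the strand of the gene, and was read only as sequence, without carrying coordinates to another build. Capitals mark GGGCGG (a GC box core), CCAAT or TATAAA on either strand, so that CCGCCC and ATTGG are marked too. Neighbouring matches can overlap.
Col11a2, chr17:34038888-34039132 (+): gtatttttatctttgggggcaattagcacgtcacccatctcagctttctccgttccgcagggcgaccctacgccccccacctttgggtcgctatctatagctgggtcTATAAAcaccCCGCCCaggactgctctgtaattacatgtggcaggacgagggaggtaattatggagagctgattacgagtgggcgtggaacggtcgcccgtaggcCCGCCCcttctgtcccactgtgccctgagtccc
Col6a3, chr1:90843977-90844221 (-): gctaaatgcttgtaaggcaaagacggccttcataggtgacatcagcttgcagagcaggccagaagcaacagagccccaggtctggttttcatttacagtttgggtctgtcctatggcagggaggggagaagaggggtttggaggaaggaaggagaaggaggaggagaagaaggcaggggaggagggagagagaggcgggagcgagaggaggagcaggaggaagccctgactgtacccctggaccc
Col8a1, chr16:57754743-57754987 (-): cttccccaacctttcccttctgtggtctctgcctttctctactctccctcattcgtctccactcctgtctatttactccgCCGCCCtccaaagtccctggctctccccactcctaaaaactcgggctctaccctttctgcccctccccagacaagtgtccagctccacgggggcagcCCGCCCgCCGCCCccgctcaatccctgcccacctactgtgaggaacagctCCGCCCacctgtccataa
Col8a2, chr4:126286544-126286788 (+): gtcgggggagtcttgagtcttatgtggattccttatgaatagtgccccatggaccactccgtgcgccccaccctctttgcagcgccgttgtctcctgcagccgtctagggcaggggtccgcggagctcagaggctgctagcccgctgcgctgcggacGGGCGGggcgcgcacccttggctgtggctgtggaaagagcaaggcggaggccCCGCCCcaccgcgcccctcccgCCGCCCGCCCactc
Slc13a4, chr6:35308132-35308376 (-): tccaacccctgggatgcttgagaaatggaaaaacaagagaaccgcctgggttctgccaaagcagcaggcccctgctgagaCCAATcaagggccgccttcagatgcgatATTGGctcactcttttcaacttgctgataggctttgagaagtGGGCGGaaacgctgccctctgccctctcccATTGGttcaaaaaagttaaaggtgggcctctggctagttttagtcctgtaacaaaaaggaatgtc

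GGGCGG occurred 4 times in Col8a1, 4 times in Col8a2, 2 times in Col11a2, once in Slc13a4 and not in Col6a3. Among all 32851 windows of this length, 32.1% held it. CCAAT occurred 3 times in Slc13a4, 70, 142 and 170 bases before the start, and in none of the other windows shown (33.5% of all windows). TATAAA occurred in Col11a2, 143 bases before the start, and in none of the others shown (12.2% of all windows). The GC content was 60.8% in Col8a1, 69.4% in Col8a2, 57.1% in Col11a2, 57.1% in Col6a3 and 50.6% in Slc13a4, beside a median of 52.2% over all windows. These matches describe the letters and were not tested as binding sites.

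Several libraries stood apart from the others in ways that cut across treatment. All values are in TPM, transcript abundance scaled for transcript length and to a common total, and library totals ran from 993379 to 995403 with 14546 to 15058 genes at 1 TPM or more. All 12 hippocampal markers, led by Neurod6, Rgs14 and Wfs1, were at 1 TPM or more in every library. Their summed level was 353 TPM in vehicle 1 and 505 to 599.6 TPM in the others, while 10 neocortex markers led by Lamp5, Hs3st4 and Rprm summed to 391 TPM in vehicle 1 and 219 to 231 TPM elsewhere. Most neocortex markers were highest in vehicle 1, by the most TPM Lamp5 (149.9 against 41.0 to 50.7 TPM). Hs3st4 went the other way, lowest in vehicle 1 (48.3 against 56.1 to 66.15 TPM). Wfs1 was not low in vehicle 1 (59.9 against 51.8 to 68.5 TPM). The 12 choroid plexus markers, led by Ttr, Folr1 and Kl, summed to 9394, 313 and 11052 TPM in CerM 1 to 3 and to 257, 268 and 15859 TPM in vehicle 1 to 3. The 10 fat tissue markers, led by Scd1, Cfd and Car3, summed to 999.6 TPM in CerM 3 and to 58.9 to 95.7 TPM in the others, with Cfd at 409 TPM in CerM 3 and listed at 0 in the other 5. Outside CerM 3 that sum was mostly Scd1 (45.9 to 74.9 TPM) and Lpl (12.0 to 21.25 TPM). Endothelial markers (Ly6c1, Cldn5, Slco1a4 and 7 more) summed to 198 to 252 TPM, mural markers (Vtn, Rgs5, Acta2 and 7 more) to 144 to 218 TPM and hemoglobin and other blood genes (Hba-a2, Hbb-bs, Hba-a1 and 2 more) to 810 to 1327 TPM, all highest in CerM 3.

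None of the collagens or fibroblast genes differed between CerM and vehicle beyond the threshold. Genes entered the test only if they averaged 1 TPM or more, which 35 of the 55 members did: 5 of 11 fibrillar, 5 of 8 basement membrane and 14 of 25 other collagens, and all 11 fibroblast genes. limma called 0 of these 35 at an adjusted p below 0.05, with adjusted p-values from 0.989 to 0.999. It also called 0 (0%) of all 14916 genes tested. At an unadjusted p below 0.05, 2 members were higher in CerM (1.07% of all genes were) and 0 were lower (1.62% of all genes were). The same 2 members, Col11a2 and Col6a3, were the ones whose groups did not overlap with CerM above (3.26% of all genes). For 0 members did they separate with CerM below (4.04% of all genes).

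Most estimates lay on the CerM side of 0, a count that was lower without CerM 3 and with a fat tissue covariate. Of the 35 members, 29 had a log2 fold change above 0 (82.9%), beside 58.8% of all genes tested, and the median was 0.29 beside 0.03 for all genes. Without CerM 3 only 18 of the 35 lay above 0, and without vehicle 3 there were 31. CerM 3 was the highest library for 19 members (54.3%), beside 10% of all genes. It was also the highest for 9 of 9 tested fat markers, 7 of 10 endothelial markers, 6 of 10 mural markers and 7 of 10 meningeal fibroblast markers outside the members. The part of these other cell types in the count of positive estimates was not tested. With the summed fat markers as a covariate, which left 3 residual degrees of freedom, 13 of the 35 members lay above 0. That sum was 999.6 TPM in CerM 3 and 58.9 to 95.7 TPM elsewhere. The covariate thus mainly marked CerM 3, and adjusting for fat markers cannot be told apart from discounting that library.

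**Figure D1:**
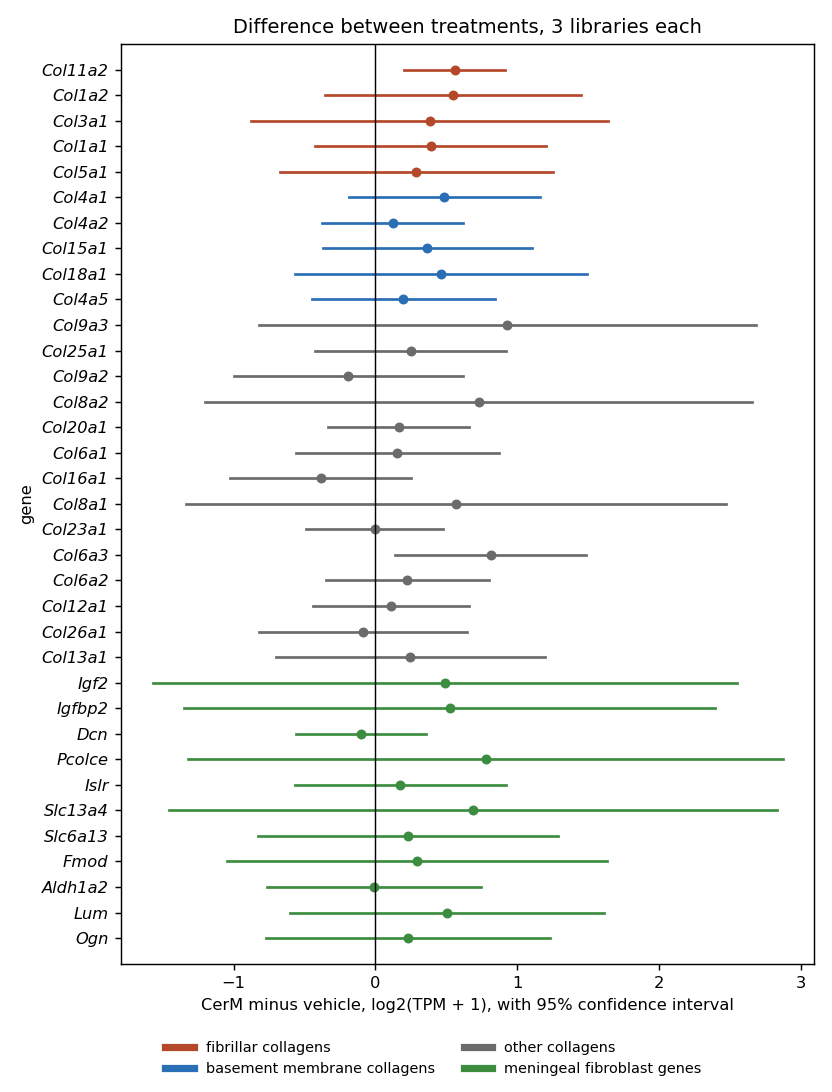
Difference between CerM and vehicle for the 35 members tested, as points with 95% confidence intervals from limma on the log2(TPM + 1) scale, coloured by class, with 3 libraries per treatment. The interval excludes 0 for Col11a2 and Col6a3, and neither passed the test after adjustment over all genes.

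The fibrillar collagens, which build the tensile fibrils of connective tissue, were scarce, and by mean TPM Col11a2 led the class. Col1a2 was above it in CerM 3 and vehicle 3, and Col3a1 was above it in CerM 3. Values are given for replicates 1, 2 and 3 in that order here and below. Col11a2, a chain of type XI collagen known from the core of cartilage fibrils, had 6.28, 6.41 and 5.81 TPM in CerM and 4.0, 4.44 and 3.24 TPM in vehicle. All 3 CerM libraries lay above all 3 vehicle libraries. The log2 fold change was 0.56 ± 0.15 (SE; 95% interval 0.20 to 0.91), with an adjusted p of 0.989 in limma. It stayed between 0.40 and 0.66 over the 19 alternative settings, and was 0.62 ± 0.16 with the choroid markers and 0.61 ± 0.19 with the fat markers as a covariate. Its partner chain Col11a1 was at 0.30 to 1.37 TPM, below the minimum, and Col11a2 exceeded it 4.24- to 14.3-fold in TPM in the 6 libraries.

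Type I collagen, the main fibril of meninges and skin, was next, and members below a mean of 5 TPM that are named with values from here on were picked after their values were seen, apart from Col6a3 and the fibroblast genes. Col1a2 had 4.06, 2.82 and 7.78 TPM in CerM and 2.35, 1.74 and 4.94 TPM in vehicle, and its partner Col1a1 had 1.58, 1.33 and 3.79 TPM in CerM and 0.97, 0.96 and 2.32 TPM in vehicle. Both chains were highest in CerM 3 and second highest in vehicle 3, and the groups overlapped. The log2 fold change was 0.55 ± 0.38 (SE) for Col1a2 and 0.39 ± 0.35 for Col1a1, 0.21 ± 0.36 and 0.07 ± 0.30 without CerM 3, and 0.87 ± 0.36 and 0.64 ± 0.35 without vehicle 3. Col1a2 exceeded Col1a1 in each of the 6 libraries, with a ratio of TPM from 1.81 to 2.57. The mature protein is known to hold more of the chain from Col1a1.

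Col3a1, the fibril of soft tissue and vessel walls, had 0.57, 1.18 and 6.44 TPM in CerM and 0.99, 1.27 and 1.55 TPM in vehicle. CerM 3 stood alone at the top while CerM 1 was the lowest of all. Its log2 fold change of 0.38 ± 0.54 became -0.29 ± 0.25 without CerM 3. Col5a1, which starts type I fibrils, was likewise highest in CerM 3 (2.88 TPM against 0.30 to 1.80 TPM), with 0.29 ± 0.41. The remaining fibrillar chains, Col27a1, Col11a1, Col5a2, Col5a3, Col2a1 and Col24a1, did not reach the minimum, and their highest single value was 1.37 TPM.

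The basement membrane collagens were led by the vascular pair Col4a1 and Col4a2, whose chains assemble together into the common type IV network. Col4a1 had 5.10, 11.4 and 11.2 TPM in CerM and 5.30, 5.47 and 7.24 TPM in vehicle. CerM 2 and CerM 3 lay above every vehicle library, and CerM 1 was the lowest of all. Col4a2 had 5.86, 9.21 and 8.05 TPM in CerM and 5.28, 8.36 and 7.40 TPM in vehicle, so that both groups covered nearly the same range. The log2 fold changes were 0.49 ± 0.29 (SE; 95% interval -0.19 to 1.16) for Col4a1 and 0.12 ± 0.21 (-0.38 to 0.62) for Col4a2, each with an adjusted p of 0.989 in limma. The ratio of Col4a1 to Col4a2 ran from 0.65 in vehicle 2 to 1.39 in CerM 3.

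Col15a1 and Col18a1, collagens of vascular and epithelial basement membranes, the latter the source of endostatin, followed another order. Col15a1 had 2.36, 2.06 and 3.91 TPM in CerM and 1.25, 1.40 and 3.38 TPM in vehicle. Col18a1 had 2.37, 1.19 and 3.63 TPM in CerM and 0.79, 0.66 and 3.41 TPM in vehicle. Both were highest in CerM 3, vehicle 3 and CerM 1, the libraries with the high choroid plexus signal, and so was the minor type IV chain Col4a5 (0.53 to 1.69 TPM). The log2 fold change of Col18a1 was 0.46 ± 0.44 (SE), and 0.13 ± 0.23 with the choroid markers as a covariate. Without vehicle 3 it was 0.91 ± 0.34 (0.10 to 1.72), with an adjusted p of 0.748 in limma. The choroid covariate left 3 residual degrees of freedom and mainly split CerM 1, CerM 3 and vehicle 3 from the rest. For genes in that order a smaller estimate under it largely follows from the order, and the part of choroid plexus was not tested. Col4a3, Col4a4 and Col4a6, the chains of specialised basement membranes such as that of the kidney filter, stayed at or below 0.53 TPM in every library.

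Among the other collagens, type VI, the beaded filament around cells and vessels, held the second member with a small p. Col6a3 had 2.45, 4.09 and 2.83 TPM in CerM and 0.62, 2.14 and 1.45 TPM in vehicle. The groups did not overlap, and the lowest library was vehicle 1. Its log2 fold change was 0.81 ± 0.29 (SE; 95% interval 0.13 to 1.49), with an adjusted p of 0.989 in limma. The estimate ran from 0.39 under array weights to 1.22 at a pseudocount of 0.1, over the 18 alternatives that tested it. The interval reached below 0 without CerM 2 (-0.14 to 1.43), without vehicle 1 (-0.04 to 1.14), without vehicle 1 and CerM 3 together (-0.13 to 1.32), with the fat markers as a covariate (-0.05 to 1.67) and under array weights (-0.10 to 0.88). With the choroid markers as a covariate it was 0.11 to 1.60. Its partners gave smaller estimates, 0.15 ± 0.31 for Col6a1 (2.11 to 5.64 TPM) and 0.23 ± 0.25 for Col6a2 (1.55 to 3.67 TPM), both highest in CerM 3. Col6a1 exceeded Col6a2 1.15- to 1.87-fold in TPM in the 6 libraries, whereas Col6a3 ranged from 0.29 of Col6a2 in vehicle 1 to 1.94 in CerM 2.

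The FACIT collagens, which sit on the surface of fibrils, included Col9a3, the most abundant collagen in CerM 1, CerM 3 and vehicle 3. It had 25.1, 11.2 and 25.0 TPM in CerM and 3.43, 6.12 and 37.0 TPM in vehicle. Vehicle 3 was the highest and vehicle 1 the lowest, so that the vehicle group covered the whole range of CerM. The log2 fold change was 0.93 ± 0.75 (SE; 95% interval -0.82 to 2.68). It was 0.34 ± 0.32 with the choroid markers as a covariate, whose split of the libraries this gene shared. When 1 library was left out, it ran from 0.30 without vehicle 1 to 1.85 ± 0.38 without vehicle 3 (0.94 to 2.76, adjusted p 0.748 in limma). Its partner Col9a2 followed another order, with 4.41, 2.71 and 5.33 TPM in CerM and 7.46, 2.55 and 5.30 TPM in vehicle (-0.19 ± 0.35), and the ratio of Col9a3 to Col9a2 ran from 0.46 in vehicle 1 to 6.99 in vehicle 3. Col16a1 had the lowest estimate of the 35 members, with 1.56, 2.89 and 3.46 TPM in CerM and 5.09, 3.14 and 2.94 TPM in vehicle (-0.39 ± 0.27). Without CerM 3 its groups no longer overlapped, with vehicle above. Col20a1 (3.54 to 6.21 TPM, 0.16 ± 0.21) and Col12a1 (1.36 to 2.96 TPM, 0.11 ± 0.23) varied less.

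The network collagens Col8a1 and Col8a2, which form the lattice under the corneal endothelium, had the largest ratio of highest to lowest TPM among the 35 members, with lowest values under 1 TPM. Col8a1 had 4.20, 0.24 and 5.85 TPM in CerM and 0.65, 0.21 and 5.80 TPM in vehicle. Col8a2 had 7.28, 1.34 and 6.66 TPM in CerM and 0.36, 1.12 and 10.3 TPM in vehicle. For both genes CerM 1, CerM 3 and vehicle 3 were high and the other 3 libraries low, a difference of up to 27.9-fold for Col8a1 and 28.6-fold for Col8a2 between the highest and the lowest library. The treatment estimates of 0.57 ± 0.81 (SE) and 0.73 ± 0.82 became -0.11 ± 0.24 and 0.05 ± 0.25 with the choroid markers as a covariate. That covariate mainly marked the same high libraries, and the part of choroid plexus was not tested. Without vehicle 3 the treatment estimates were 1.32 ± 0.70 and 1.64 ± 0.57, the latter with an interval of 0.29 to 2.99 and an adjusted p of 0.748 in limma.

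Col25a1, a transmembrane collagen of neurons that binds amyloid, was the most abundant collagen in CerM 2, vehicle 1 and vehicle 2. It had 17.6, 24.2 and 15.4 TPM in CerM and 9.70, 18.8 and 20.7 TPM in vehicle. The groups overlapped and vehicle 1, the library with the low hippocampal markers, was the lowest. Its log2 fold change was 0.25 ± 0.29 (SE; 95% interval -0.43 to 0.92). The other transmembrane chains tested were Col23a1 (1.78 to 3.00 TPM, -0.01 ± 0.21) and Col13a1 (0.25 to 2.13 TPM, 0.24 ± 0.40), and Col26a1 (0.68 to 2.78 TPM) gave -0.09 ± 0.31. The other 11 chains stayed below the minimum: Col19a1, Col7a1, Col14a1, Col17a1, Col6a4, Col22a1, Col9a1, Col6a5, Col28a1, Col6a6 and Col10a1. Their highest value was 2.44 TPM, for the epithelial anchoring collagen Col17a1 in vehicle 3. Col22a1 (0.51 to 0.53 against 0.34 to 0.42 TPM) and Col6a5 (0.17 to 0.55 against 0.07 to 0.13 TPM) were higher in all 3 CerM libraries at these low levels and were not tested.

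Set side by side, the 3 collagen classes had similar estimates with overlapping ranges, and a difference between classes was not tested. The median log2 fold change was 0.39 for the 5 fibrillar chains (range 0.29 to 0.56, all 5 above 0), 0.36 for the 5 basement membrane chains (0.12 to 0.49, all 5 above 0) and 0.19 for the 14 other collagens (-0.39 to 0.93, 10 above 0). When 1 library was left out, the medians were lowest without CerM 3, at 0.07, 0.16 and -0.02, and highest at 0.59 without CerM 2, 0.61 without vehicle 3 and 0.29 without CerM 1, in the same order of classes. With the fat markers as a covariate, which mainly marks CerM 3, they were -0.02, 0.08 and -0.04.

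Summed over chains, the collagens took 113, 111 and 152 TPM in CerM and 74.7, 77.9 and 145 TPM in vehicle. CerM 3 and vehicle 3 were high, and vehicle 1 and vehicle 2 were low. The other collagens made up 59.9% to 73.0% of that sum, the basement membrane collagens 15.5% to 22.6% and the fibrillar collagens 10.5% to 20.5%, the last highest in CerM 3 and lowest in vehicle 3. The fibrillar sum was 16.0, 16.1 and 31.1 TPM in CerM and 13.1, 11.04 and 15.3 TPM in vehicle, and the groups did not overlap. Without Col11a2 it was 9.75, 9.71 and 25.3 TPM against 9.07, 6.60 and 12.1 TPM, and the groups overlapped. The basement membrane sum was 17.5, 25.0 and 29.9 TPM in CerM and 13.5, 17.0 and 23.9 TPM in vehicle, with the groups overlapping.

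**Figure D2:**
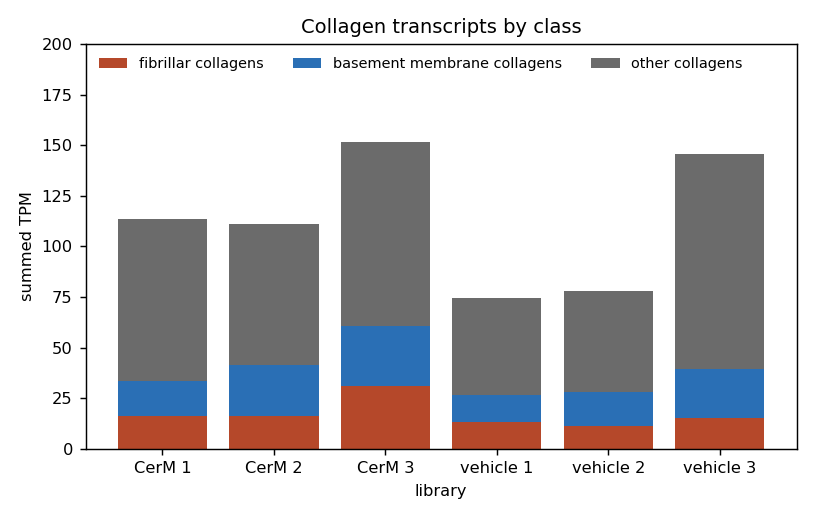
Summed TPM of the 44 collagen genes in each library, as stacked bars for fibrillar, basement membrane and other collagens. The total is 152 TPM in CerM 3 and 145 TPM in vehicle 3, and 74.7 to 113 TPM in the other 4 libraries.

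Among the 11 fibroblast genes, Igf2 was the most abundant member in CerM 1, CerM 3 and vehicle 3, and Dcn in the other 3 libraries. Igf2, a growth factor of meninges and choroid plexus, had 120.0, 29.0 and 177 TPM in CerM and 37.6, 27.6 and 211 TPM in vehicle. Igfbp2, which binds that factor, had 104, 30.1 and 141 TPM in CerM and 31.9, 26.3 and 172 TPM in vehicle. Both were high in CerM 1, CerM 3 and vehicle 3 and low in the other 3 libraries, as Ttr was with 9123, 284 and 10713 TPM in CerM and 244, 244 and 15417 TPM in vehicle. Their log2 fold changes were 0.49 ± 0.88 and 0.52 ± 0.80 (SE), with 95% intervals of -1.57 to 2.55 and -1.35 to 2.39. With the choroid markers as a covariate they were -0.25 ± 0.18 and -0.15 ± 0.15, and without vehicle 3 they were 1.38 ± 0.69 and 1.37 ± 0.59. That covariate mainly marked the same high libraries, and the part of choroid plexus was not tested. The ratio of Igfbp2 to Igf2 varied little, from 0.80 to 1.04.

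Pcolce and Slc13a4 followed the same order. Pcolce, which speeds the trimming of procollagen ends, had 20.4, 4.32 and 29.6 TPM in CerM and 4.22, 3.16 and 31.0 TPM in vehicle. Slc13a4, a sulfate carrier, had 12.7, 2.38 and 20.2 TPM in CerM and 2.87, 1.72 and 21.3 TPM in vehicle. For each, 2 of 3 CerM libraries but only 1 of 3 vehicle libraries were high, and the groups overlapped. The estimates of 0.78 ± 0.90 (SE) and 0.69 ± 0.91 became 0.02 ± 0.18 and -0.08 ± 0.22 with the choroid covariate, which mainly marked the high libraries. Without vehicle 3 they were 1.70 ± 0.69 (0.06 to 3.34) and 1.61 ± 0.72 (-0.10 to 3.33), each with an adjusted p of 0.748 in limma. Lum and Ogn, leucine-rich proteoglycans that bind collagen fibrils, had the same 3 libraries on top over a smaller range. Lum had 4.07, 1.40 and 7.08 TPM in CerM and 1.64, 1.53 and 4.18 TPM in vehicle (0.50 ± 0.47). Ogn had 2.96, 1.17 and 5.74 TPM in CerM and 2.41, 1.35 and 3.48 TPM in vehicle (0.23 ± 0.43).

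Dcn, the proteoglycan decorin that binds collagen fibrils, was the steadiest of the fibroblast genes. It had 49.2, 35.7 and 59.8 TPM in CerM and 54.0, 43.1 and 55.8 TPM in vehicle, a 1.68-fold range over all 6 libraries. The groups overlapped fully, with a log2 fold change of -0.10 ± 0.20 (SE; 95% interval -0.56 to 0.36). Islr, an immunoglobulin-domain gene of stromal cells, had 10.5, 11.2 and 20.1 TPM in CerM and 10.9, 8.22 and 17.8 TPM in vehicle (0.18 ± 0.32), with CerM 3 and vehicle 3 on top.

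The last 3 fibroblast genes were highest in CerM 3 and did not follow the choroid order. Slc6a13, a carrier of GABA and taurine in leptomeninges, had 2.79, 4.17 and 12.7 TPM in CerM and 4.03, 3.65 and 6.10 TPM in vehicle (0.23 ± 0.45). Fmod, the proteoglycan fibromodulin, had 3.25, 2.04 and 12.4 TPM in CerM and 5.64, 1.71 and 4.27 TPM in vehicle (0.29 ± 0.57). Aldh1a2 had 2.84, 3.58 and 7.82 TPM in CerM and 4.40, 3.47 and 5.57 TPM in vehicle (-0.01 ± 0.32). Without CerM 3 the 3 estimates were -0.31 ± 0.26, -0.34 ± 0.41 and -0.37 ± 0.23. In CerM 3 the fat hormone gene Adipoq, picked after its values were seen, was at 61.9 TPM, against 0 to 0.06 TPM in the other 5 libraries, and the part of fat tissue in these levels was not tested.

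The 11 meningeal fibroblast genes were set beside 12 fibroblast markers outside the members. These markers were led by Mgp, Pdgfra and Slc6a20a, and Mgp (43.4 to 103 TPM) made up most of their sum in each library. They summed to 93.7, 86.0 and 167 TPM in CerM and 98.5, 74.5 and 117 TPM in vehicle, highest in CerM 3. Their range over libraries was narrower than that of the 11 genes together, which summed to 332, 125 and 494 TPM in CerM and 159.5, 122 and 532 TPM in vehicle. Without Igf2 and Igfbp2 the remaining 9 genes summed to 109, 65.9 and 175 TPM in CerM and 90.1, 67.9 and 149 TPM in vehicle. The median log2 fold change of the 11 genes was 0.29, with 9 above 0, and it was -0.10 without CerM 3, -0.01 without vehicle 2 and 0.73 without CerM 2.

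**Figure D3:**
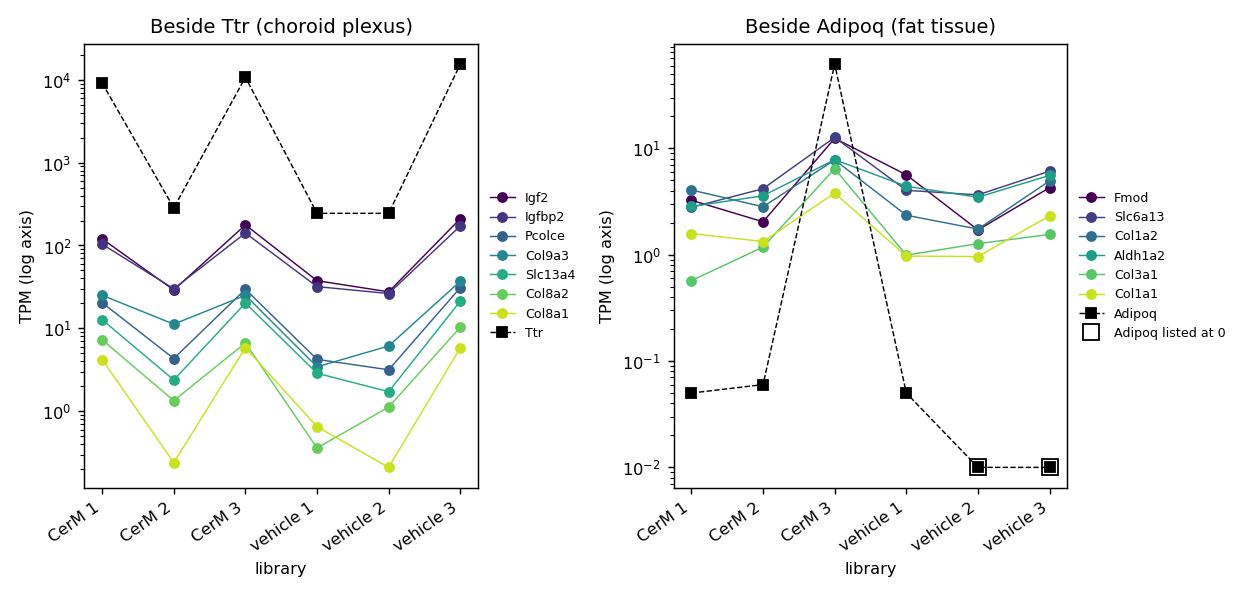
TPM in each library on a log axis. The left panel shows 7 members beside Ttr, and all 8 genes are higher in CerM 1, CerM 3 and vehicle 3 than in the other 3 libraries. The right panel shows 6 members beside Adipoq, all highest in CerM 3. Members of both panels were picked after their values were seen. In the right panel, Col1a1 and Col1a2 also had CerM 1, CerM 3 and vehicle 3 as their highest libraries. Lines only join the points of a gene, and Adipoq values listed at 0 are drawn at 0.01.

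Over all members, 15 of 35 (42.9%) had CerM 1, CerM 3 and vehicle 3 as their 3 highest libraries, beside 5.56% of all genes tested. They were 9 of 24 collagens, namely Col1a1, Col1a2, Col15a1, Col18a1, Col4a5, Col9a3, Col8a1, Col8a2 and Col13a1, and 6 of 11 fibroblast genes, namely Igf2, Igfbp2, Pcolce, Slc13a4, Lum and Ogn. All 12 choroid plexus markers had the same 3 libraries on top. So did 3 of 10 fibroblast markers outside the members, 2 of 10 endothelial markers, 0 of 10 mural markers and 15 of the 63 tested genes of collagen handling. Leaving out vehicle 3, the vehicle library among those 3, left 10 members whose groups did not overlap with CerM above, in place of 2, and 14.55% of all genes then did so. Those 10 were Col11a2, Col6a3, Col1a1, Col1a2, Col15a1, Col18a1, Col8a2, Col9a3, Col20a1 and Pcolce. With the summed choroid markers as a covariate, 23 of 35 members lay above 0. That covariate mainly split CerM 1, CerM 3 and vehicle 3 from the rest. Adjusting for choroid markers thus cannot be told apart from adjusting for that split.

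**Figure D4:**
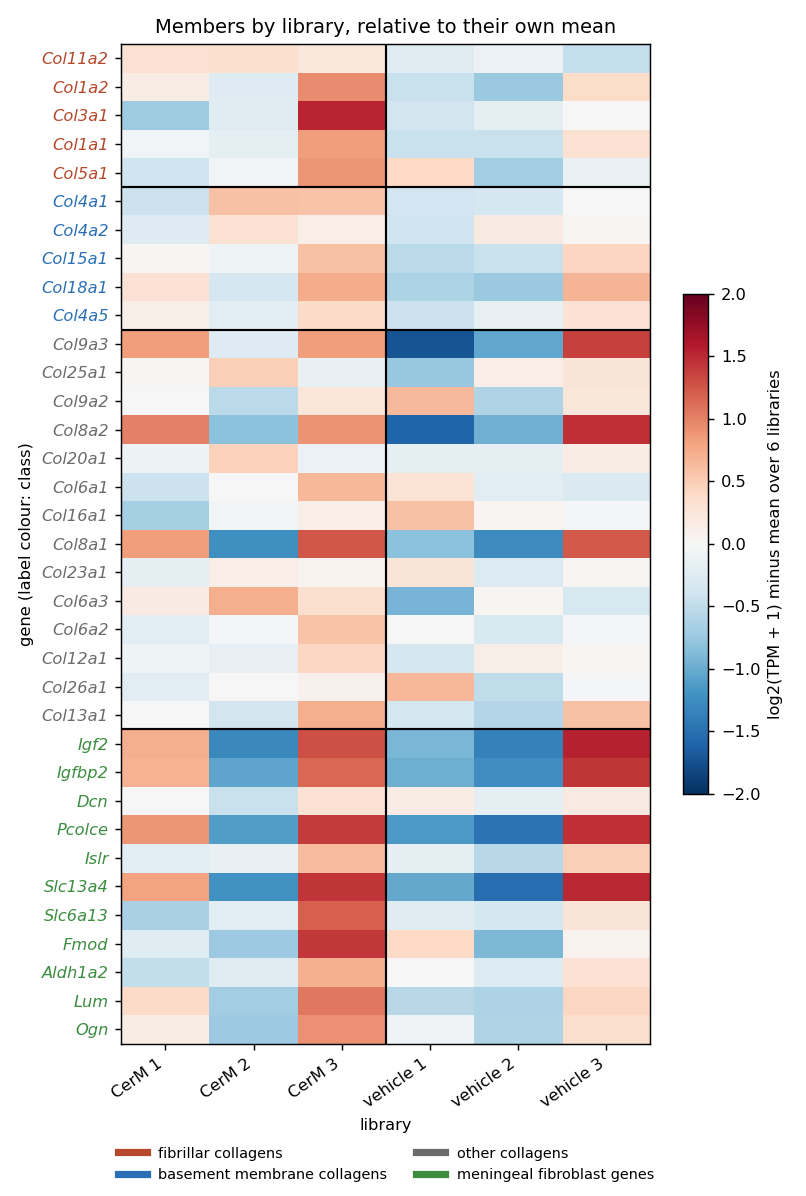
Level of the 35 members tested in each of the 6 libraries, as log2(TPM + 1) minus the mean of the gene over the 6 libraries, with red above and blue below that mean. Igf2, Igfbp2, Pcolce, Slc13a4, Col8a1 and Col8a2 are red in CerM 1, CerM 3 and vehicle 3 and blue in the other 3 libraries, while Col11a2 is red in the 3 CerM libraries only.

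Genes that make, trim, bind and break down collagen were read from 6 lists, 81 genes in all. Of these, 63 were tested and limma called 0. At an unadjusted p below 0.05, 1 was higher in CerM (1.07% of all genes were) and 0 were lower (1.62% of all genes were). Of the 63, 55 lay above 0 (87.3%, beside 58.8% of all genes tested), and the median log2 fold change was 0.14. The 1 gene was Timp4, an inhibitor of matrix proteases, with 12.1, 11.4 and 10.8 TPM in CerM and 7.97, 9.90 and 8.13 TPM in vehicle. Its groups did not overlap, and its log2 fold change was 0.37 ± 0.13 (SE) with an adjusted p of 0.989 in limma. With Plod2 and P3h1, 3 of the 63 genes had groups that did not overlap with CerM above, beside 3.26% of all genes.

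By role, the enzymes and chaperones of collagen synthesis and folding had 19 of 22 tested genes above 0 (median 0.09). The lysyl hydroxylases Plod2 (0.47 ± 0.23, SE) and Plod1 (0.40 ± 0.20) had the smallest p-values there. Procollagen trimming and crosslinking had 6 of 6 above 0 (median 0.29), led by the procollagen protease Bmp1 (0.32 ± 0.25) and its enhancer Pcolce2 (0.57 ± 0.45). Breakdown and its inhibitors had 8 of 10 above 0 (median 0.11), led by Timp4 and the membrane-bound protease inhibitor Reck (0.25 ± 0.24). Collagen receptors had 6 of 7 above 0 (median 0.15), led by the receptor kinase Ddr1 (0.43 ± 0.26) and the integrin chain Itgb1 (0.15 ± 0.14). The laminins and other basement membrane partners had 13 of 15 above 0 (median 0.16), led by Lama5 (0.65 ± 0.36) and Lama1 (0.52 ± 0.31). The small leucine-rich proteoglycans outside the members had 3 of 3 above 0 (median 0.55), led by Prelp (0.55 ± 0.41) and Bgn (0.59 ± 0.47). Vehicle 1 was the lowest library for 37 of the 63 genes, and it was the lowest for 8 of the 35 members, where vehicle 2 was the lowest for 17. Over all 14916 genes tested, vehicle 1 was the lowest for 4887 and vehicle 2 for 1692.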

How the data were processed

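RNA of 6 mouse hippocampus samples was sequenced, 3 per treatment, after TRIzol extraction, DNase I treatment and TruSeq library preparation, as the labels' protocols state. The submitters' processing notes name the build GRCm39 and the tools StringTie, RSEM and HISAT2, giving neither versions nor what each did. Per gene, the authors deposited TPM to 2 decimals. TPM keeps no depth, so precision comes from the spread over 3 libraries. Whether counting used strand is not given in the sources used here, so reads of overlapping genes may not be separated. The annotated start sites of the head-to-head pair Col4a1 and Col4a2 lie 21 bases apart, so any stretch they share there is short.

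Genes with a mean of at least 1 TPM (14916) were fitted with limma (3.58.1, under R 4.3.3), taking log2(TPM + 1) and a variance trend, two-sided, with Benjamini-Hochberg adjustment over all of them and a threshold of 0.05. Fold changes on this scale understate those of low genes. Errors are standard errors, and intervals cover 95%. The procedure was checked on simulated data with independent noise for each gene and library. Effects shared by many genes of a library, such as those of the choroid plexus markers here, were not simulated. Groups came from the sample titles. Tables and plots were made in Python 3.11.15 (pandas 2.3.3, numpy 2.4.6, matplotlib 3.10.9).

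Members, classes, pathway lists and marker lists were chosen with earlier results of these data known. Every member is accounted for. Values in all libraries were planned for members with a mean of at least 5 TPM and for the 11 fibroblast genes, singly for other members at an unadjusted p below 0.05, with the 2 genes of smallest p from each pathway list and the 3 most abundant of each marker list. Alternatives changed the pseudocount, the TPM minimum, scaling, the variance trend, array weights and the replicate block, and left out each library. Chosen after seeing the data were both covariates, leaving out vehicle 1 and CerM 3 together, and the counts of groups that do not overlap.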

Additional observations from a re-analysis of the deposited data

How the results depend on the processing

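Over all 19 alternatives, limma called 0 members and 0 pathway genes, with the smallest adjusted p of a member, 0.214, under array weights. Calls over all genes ran from 0 to 7 when 1 library was left out (7 without CerM 3), with 1 when vehicle 1 and CerM 3 were both left out. Members with groups that do not overlap and CerM above numbered 4 of 55 with no TPM minimum (3.12% of all genes), 1 of 12 at a minimum of 5 TPM (2.49%) and 2 to 10 of 35 when 1 library was left out (4.88% to 14.55%), with 10 without vehicle 3. Those with CerM below numbered 0 to 1 when 1 library was left out (5.84% of all genes without CerM 3, where it was 1) and 3 of 35 with vehicle 1 and CerM 3 both left out (Col3a1, Col12a1 and Col16a1), when 9.57% of all genes did so. Under array weights the median log2 fold change was 0.98 for fibrillar collagens and 1.24 for fibroblast genes, and 20 of 35 members (57.1%) were higher at an unadjusted p below 0.05, beside 8.74% of all genes. Without vehicle 3 these were 8 members (22.9%), beside 3.996% of all genes. The median was 0.59 for other collagens at a minimum of 5 TPM, where only Col9a3 and Col25a1 remained of that class. For basement membrane collagens it was -0.016 with vehicle 1 and CerM 3 both left out, when 13 of 35 members lay above 0. The sign held for 7 members in every alternative that tested them, among them Col11a2 and Col6a3, and turned in at least 1 for the other 28. With the replicate block limma called 0 genes, and 3 members had an unadjusted p below 0.05 in place of 2. In the labels, same-numbered libraries share only a number. Their deviations from the group means correlated at 0.008, 0.196 and 0.222, against -0.207 to 0.065 for libraries of differing number. Whether they were paired is not known. Of the 6 libraries, 5 correlated best with their own number, while vehicle 1 did so with CerM 2 (0.065). For CerM 1 the values were 0.008 with vehicle 1, 0.004 with vehicle 2 and -0.011 with vehicle 3. Deviations from a mean of 3 libraries are not independent, so these correlations cannot decide on a pairing. Depth is unknown, and precision rests on the spread over 3 libraries per group.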
